A study of Mus musculus with 6 samples.

Results

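Type I interferons and double-stranded RNA (dsRNA) act through a shared set of antiviral genes, and 10 of these formed the set described here: Isg15, Ifit1, Ifit2, Ifit3, Oasl2, Ifih1, Bst2, Eif2ak2, Ifitm1 and Ifitm3. Members were the array probe sets whose platform annotation names exactly 1 gene, that gene being one of the 10. This gave 11 probe sets for 9 genes, out of 34945 probe sets naming 1 gene and 45101 in all. The only probe set for Isg15, a ubiquitin-like modifier, also names Gm9706, so Isg15 has no value here. The arrays measured RNA of undifferentiated mouse embryonic stem cells of the R1 line, grown with leukaemia inhibitory factor, the cytokine that keeps them pluripotent. The 3 Pcl2 shRNA samples came from cells that stably expressed a short hairpin RNA against Pcl2, a Polycomb-like protein whose gene symbol is Mtf2, and the 3 mismatch control samples from cells that stably expressed a mismatched hairpin. The labels describe the samples of each group as biological replicates. All 6 samples therefore carried a hairpin construct, and the labels describe a selection medium with G418, an antibiotic that kills cells lacking a resistance gene. The Pcl2 shRNA cells were 1 clone, so the shRNA and the clone cannot be told apart.

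In an infected cell, dsRNA is bound by sensors such as the products of Ifih1 (MDA5) and Eif2ak2 (PKR). MDA5 signals through the adaptor MAVS to switch on the interferon genes. Secreted interferon binds its receptor on the same and neighbouring cells, and the signal switches on antiviral genes through interferon-stimulated response elements in their promoters. Mouse embryonic stem cells are known for making little interferon and for responding weakly to it, yet they express some of these genes, the Ifitm genes among them, without infection.

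The element's core, taken as GAAA, any 2 bases and GAAA, was searched on both strands of RefSeq promoter windows of GRCm38.p6, 250 bases before to 50 bases after each gene's start. All 10 genes had a window, and 7 of them held the core: Isg15, Ifih1, Ifitm3, Bst2, Eif2ak2, Ifit3 and Ifit1. Oasl2, Ifitm1 and Ifit2 did not. Of 27025 genes with a window, 1079 (3.99%) held it. The matches of 6 measured members are shown because they are letters that these 6 have in common. Each sequence runs 5′ to 3′ on the gene's own strand, and capitals mark the core or its reverse complement (TTTC, any 2 bases and TTTC). The Ifih1 stretch is chr2:62646206-62646235 on the minus strand, and its match lies 32 to 41 bases past the start. The Ifitm3 stretch is chr7:141010715-141010757 on the minus strand and holds 2 matches, both past the start. The Bst2 stretch is chr8:71537572-71537617 on the minus strand and holds 2 matches that overlap, lying 115 to 130 bases before the start. The Eif2ak2 stretch is chr17:78882530-78882559 on the minus strand, with its match 18 to 27 bases past the start. The Ifit3 stretch, chr19:34583358-34583431, and the Ifit1 stretch, chr19:34640770-34640828, lie on the plus strand with 2 matches each, all before the start.
Ifih1: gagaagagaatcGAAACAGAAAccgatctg
Ifitm3: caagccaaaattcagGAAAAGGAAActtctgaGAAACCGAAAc
Bst2: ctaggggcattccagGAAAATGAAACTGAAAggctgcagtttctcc
Eif2ak2: gccggGAAAACGAAAcagaagagaaccggc
Ifit3: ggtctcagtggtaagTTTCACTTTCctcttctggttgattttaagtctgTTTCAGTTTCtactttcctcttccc
Ifit1: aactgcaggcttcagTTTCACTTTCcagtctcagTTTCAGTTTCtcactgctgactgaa

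Oasl2 is shown beside them as a member without the core. Its 250 bases before the start, chr5:114896684-114896933 on the plus strand, are given in lower case because they hold no match to mark.
Oasl2: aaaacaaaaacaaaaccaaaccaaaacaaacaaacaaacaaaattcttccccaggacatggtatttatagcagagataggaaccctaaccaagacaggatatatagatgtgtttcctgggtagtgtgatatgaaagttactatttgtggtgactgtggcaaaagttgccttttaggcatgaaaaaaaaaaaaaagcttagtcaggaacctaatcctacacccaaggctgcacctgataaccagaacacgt

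The values are the authors' MAS5 signals, a brightness per probe set on a linear scale, scaled alike on the 6 arrays (each had a 2% trimmed mean of 150.001). Changes are log2 fold changes of Pcl2 shRNA over mismatch control on the log2(signal + 7) scale, which understates the change of dim genes. They carry a standard error (SE) and limma's adjusted p, and a gene rose or fell where that p was below 0.05. Means are given with SD and n = 3 arrays per group, and the array number limits the precision. The spread behind limma's p-values is that between the biological replicates of each group. Where the replicate number is a block, it is that of the differences within pairs. Exact permutation p-values rest on relabelling the arrays instead. No p-value covers the spread between clones of Pcl2 shRNA cells. A signal of 20.3 served as the background level, the highest of 27 bacterial control probe sets on any array, and probe sets at or below it are called not above background. The highest bacterial signal was 18.0 to 20.3 on the Pcl2 shRNA arrays and 11.2 to 12.1 on the mismatch control arrays. In such bulk RNA, fewer cells expressing a gene and less RNA per cell cannot be told apart. Mtf2, the targeted gene, had signals of 1048, 1167 and 870 in Pcl2 shRNA cells, against 1951, 1513 and 1704 in mismatch control cells. It fell by 0.74 on the log2 scale, with an SE of 0.17 (adjusted p = 0.0157). The adjusted p was 0.0519 without mismatch control replicate 1 and 0.0574 without Pcl2 shRNA replicate 3. Other probe sets of Mtf2 differed. Those that fell gave -0.68, -0.75 and -0.73 in the fit of all probe sets (adjusted p = 0.0402, 0.0150 and 0.0259). Another overlapped and did not pass (0.25, adjusted p = 0.573). A dim one, tested only without a filter on low signals, gave -0.15 (adjusted p = 0.858).

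Of the 9 measured genes, 6 passed the filter on low signals, a mean of 20.2, and Ifit1, Ifit3 and Ifih1 did not. Oasl2 passed it through its mismatch control signals alone, so the counts and the median over the members that passed are a description. Among those 6, Oasl2 and Ifitm3 fell, none rose, and Ifit2, Bst2, Eif2ak2 and Ifitm1 did not pass the test. Over all 13095 genes tested, 8.16% fell and 4.46% rose, 1068 and 584 genes. With the replicate number as a block, 3 members fell, Bst2 being the addition, against 13.8% of all genes (1808), and 9.97% (1305) rose. In the fit of all 18193 genes without the filter, where 5.16% fell and 2.7% rose, 3 of the 9 measured members fell (Ifitm3, Oasl2 and Ifih1) and none rose. With the filter, the median log2 fold change was -0.72 over the 6 tested members and 0.02 over all genes. In 6 of the 11 probe sets, all 3 Pcl2 shRNA signals lay below all 3 mismatch control signals, and in none did they lie above. Among all probe sets naming 1 gene, 11.8% lay lower without overlap and 12.4% higher. The other 5 probe sets overlapped.

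**Figure D1:**
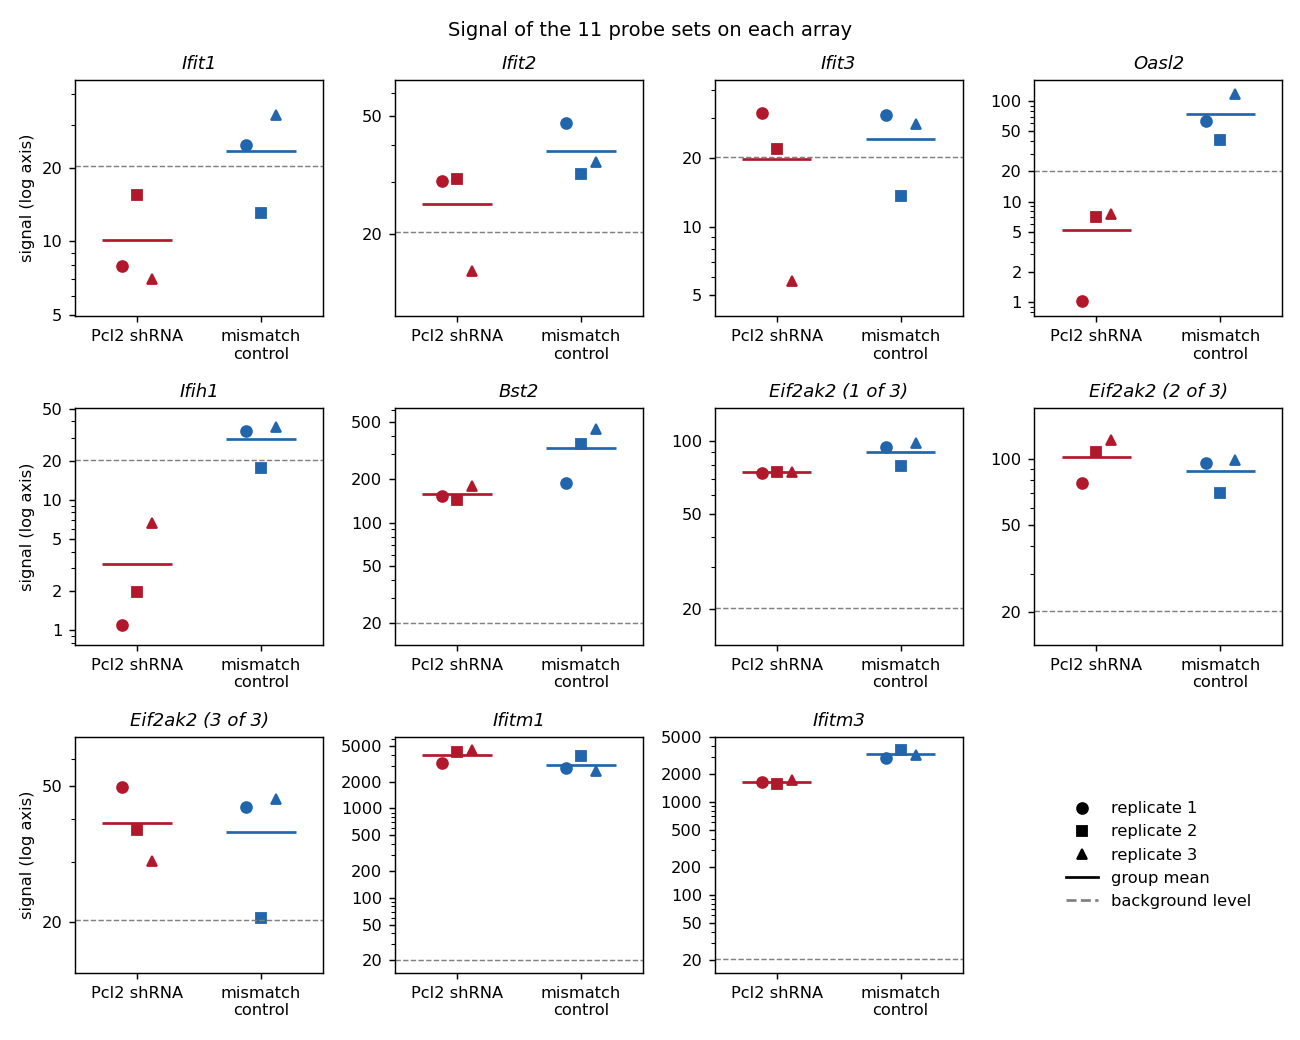
Signal (log axis) of each of the 11 probe sets on each array, with Pcl2 shRNA to the left of mismatch control. Points are arrays, shaped by replicate number, solid lines are group means and the dashed line is the background level of 20.3. Oasl2, Ifih1 and Ifit1 lie below that line on all 3 Pcl2 shRNA arrays, and Ifitm3 shows 2 tight, separate groups far above it.

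Among the sensors of dsRNA, Ifih1 was low. It encodes MDA5, which recognises long dsRNA. Its signal was 1.10, 1.97 and 6.61 in Pcl2 shRNA cells, against 33.8, 17.6 and 36.0 in mismatch control cells. The groups did not overlap, but all 3 Pcl2 shRNA arrays and mismatch control replicate 2 were not above background. Against the background level the gene was at least 1.37-fold lower in Pcl2 shRNA cells, and at least 1.20-fold lower without mismatch control replicate 3. In the fit without a signal filter, Ifih1 fell by 1.82 on the log2 scale, with an SE of 0.31 (adjusted p = 0.00915). That call was lost when signals under the background level were raised to it (-0.41, adjusted p = 0.285).

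Eif2ak2 encodes PKR, the kinase that stops translation through eIF2α once dsRNA is bound, and its 3 probe sets did not move together. The brightest by mean, which represents the gene, gave 77.8, 107 and 122 in Pcl2 shRNA cells, against 96.4, 69.9 and 98.9 in mismatch control cells. These overlapped, and the log2 fold change was 0.19 (SE 0.23, adjusted p = 0.671). A second probe set gave 73.5, 74.5 and 74.7 in Pcl2 shRNA cells, against 95.1, 78.8 and 98.2 in mismatch control cells. It lay lower without overlap, yet its change of -0.26 (SE 0.19) did not pass the test over all 23186 probe sets, of which 6.83% fell and 3.61% rose (adjusted p = 0.454). The remaining probe set overlapped, at 49.8, 37.2 and 30.2 in Pcl2 shRNA cells and 43.5, 20.6 and 45.7 in mismatch control cells. Its log2 fold change was 0.11 (SE 0.30, adjusted p = 0.862). The probe sets of this gene thus differ in sign, and none passed.

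Oasl2 had the largest fitted change of the tested members. It encodes a protein related to the 2-5 oligoadenylate synthetases, with ubiquitin-like domains, and is induced by interferon. Its signal was 1.03, 7.07 and 7.46 in Pcl2 shRNA cells, against 63.7, 41.4 and 117 in mismatch control cells. All Pcl2 shRNA arrays were not above background and all mismatch control arrays were above it, so the groups did not overlap. Means were 5.18 ± 3.60 in Pcl2 shRNA cells and 73.9 ± 38.6 in mismatch control cells. Oasl2 fell by 2.67 on the log2 scale, with an SE of 0.38 (adjusted p = 0.00153 in the filtered fit, 0.00440 without the filter), and against the background level it was at least 3.33-fold lower. With 1 mismatch control array left out, that bound ran between 2.53-fold (without replicate 3) and 4.25-fold (without replicate 2). Oasl1, its neighbour on chromosome 5, averaged 54.6 ± 21.0 in Pcl2 shRNA cells and 49.4 ± 4.31 in mismatch control cells, a log2 fold change of 0.06 (adjusted p = 0.919).

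The Ifit genes encode proteins with tetratricopeptide repeats, and IFIT1 binds viral RNA that lacks host cap methylation. Ifit2, the one of them that passed the signal filter, had signals of 30.1, 30.7 and 15.0 in Pcl2 shRNA cells, against 47.4, 31.98 and 35.0 in mismatch control cells. The groups did not overlap, but Pcl2 shRNA replicate 2 and mismatch control replicate 2 were close, and the log2 fold change of -0.51 (SE 0.29) did not pass the test (adjusted p = 0.301). Ifit1 gave 7.92, 15.6 and 7.05 in Pcl2 shRNA cells, against 24.8, 13.1 and 32.7 in mismatch control cells. Pcl2 shRNA replicate 2 lay above mismatch control replicate 2, no Pcl2 shRNA array was above background, nor was mismatch control replicate 2, and the unfiltered fit gave -0.81 (adjusted p = 0.189). Ifit3 overlapped broadly, with 31.6, 22.0 and 5.77 in Pcl2 shRNA cells and 30.8, 13.7 and 28.3 in mismatch control cells (-0.32, adjusted p = 0.753). Without Pcl2 shRNA replicate 3 its log2 fold change was 0.15. Ifit3 has a near-identical neighbour, Ifit3b, on chromosome 19, so whether its probe set reads both is uncertain.

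Bst2 encodes tetherin, which holds budding enveloped viruses at the cell surface. Its signal was 152, 144 and 178 in Pcl2 shRNA cells, against 187, 352 and 442 in mismatch control cells. The 3 Pcl2 shRNA arrays were close together, and mismatch control replicate 1 lay just above them and well below the other mismatch control arrays. The log2 fold change of -0.94 (SE 0.28) missed the threshold (adjusted p = 0.0547). It passed with the replicate block (adjusted p = 0.00856) and without mismatch control replicate 1 (-1.29, adjusted p = 0.00587). The block is a pairing read from the values and not from the labels, and 13.8% of all genes fell with it. Matched by replicate number, the differences were -0.28, -1.25 and -1.28.

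The Ifitm genes encode small membrane proteins that block the entry of enveloped viruses, and they lie next to each other on chromosome 7 in the order Ifitm5, Ifitm2, Ifitm1, Ifitm3 and Ifitm6. Ifitm3 had signals of 1615, 1569 and 1731 in Pcl2 shRNA cells, against 2960, 3586 and 3209 in mismatch control cells. The arrays of each group were close together and the groups were far apart. Ifitm3 fell by 0.98 on the log2 scale, with an SE of 0.14 (adjusted p = 0.00169) to 50.4% of the mismatch control mean, 1638 ± 83.2 in Pcl2 shRNA cells and 3252 ± 315 in mismatch control cells. In the mouse, Ifitm3 and Ifitm1 (fragilis and fragilis2) are also known from the precursors of germ cells. The signal of Ifitm1 was 3190, 4291 and 4546 in Pcl2 shRNA cells, against 2861, 3855 and 2593 in mismatch control cells. The groups overlapped through mismatch control replicate 2, and its change of 0.37 (SE 0.20) did not pass the test (adjusted p = 0.266). Ifitm2 averaged 2921 ± 604 in Pcl2 shRNA cells and 1872 ± 442 in mismatch control cells, higher on every Pcl2 shRNA array (0.65, SE 0.22), with an adjusted p of 0.0796, or 0.00591 with the replicate block. The log2 ratio of Ifitm3 to Ifitm1 was lower by 1.36 in Pcl2 shRNA cells and that of Ifitm3 to Ifitm2 by 1.63, both without overlap. Each had a two-sided exact permutation p of 0.1, the smallest that 3 against 3 arrays can give. It was also 0.1 after adjustment over the 2 ratios. Ifitm3 already lay lower and Ifitm2 higher without overlap, so the outcome for their ratio was fixed beforehand. The signals of Ifitm3 and Ifitm1 likewise leave no overlap of their ratio, whichever arrays of a group are matched. Both ratios are thus only a description.

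**Figure D2:**
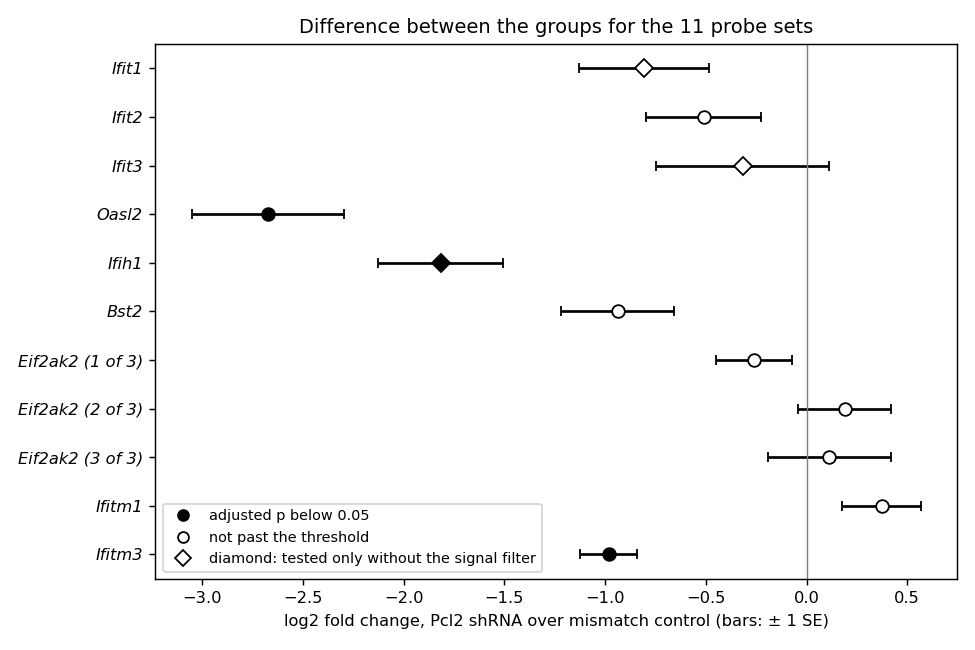
Log2 fold change, Pcl2 shRNA over mismatch control, of each member probe set, with horizontal bars of 1 SE. Oasl2, Ifih1, Ifitm3 and Bst2 lie farthest to the left at -2.67, -1.82, -0.98 and -0.94, while Ifitm1 and 2 of the 3 Eif2ak2 probe sets lie right of 0.

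Both groups had arrays that were often the extreme one. Mismatch control replicate 2 was the lowest of its group for 8 of the 11 member probe sets (72.7%), against 38.8% of all genes tested, and mismatch control replicate 3 was the highest for 7 (63.6%), against 38.1%. Pcl2 shRNA replicate 3 was the highest of its group for 7 probe sets (63.6%), against 41.1% of all genes. Of 30 other interferon-stimulated genes tested, 19 (63.3%) also had their lowest mismatch control signal in replicate 2. Ifitm1 and Ifitm3 ran the other way, with replicate 2 the highest, and Bst2 was lowest in replicate 1. Mismatch control replicate 2 also had the lowest median signal over all probe sets, 28.5, against 33.2 to 33.9 on every other array. Whether this lower median bears on the counts was not tested. Probe sets within 1 array share that array's RNA, so these counts describe 3 cultures and carry no test.

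**Figure D3:**
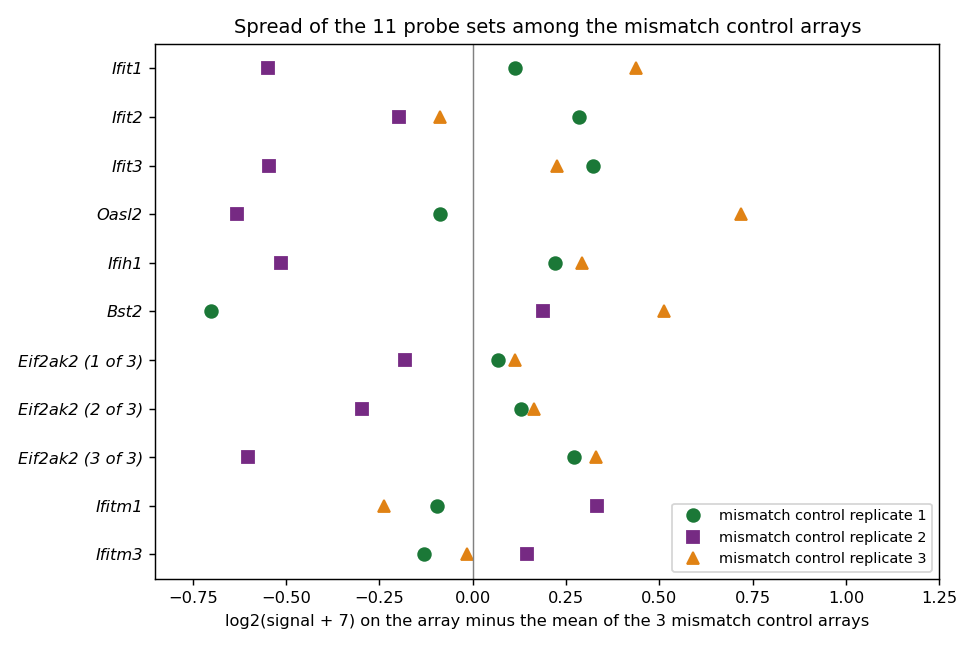
Difference of each mismatch control array from the mean of the 3 (log2), for each member probe set, by replicate number. Replicate 2 lies lowest for 8 of the 11 probe sets, and Ifitm1, Ifitm3 and Bst2 are the exceptions.

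The genes nearest to Oasl2 over the 6 arrays, by the root-mean-square difference of centred log2 values, were Dsp (0.24), Fam89a (0.24), Podxl (0.29), Serpinh1 (0.29) and Trim67 (0.30), where the median over all genes was 1.44. Dsp encodes the desmosome protein desmoplakin, Podxl a sialomucin of the cell surface and Serpinh1 a collagen chaperone. Dsp had signals of 138, 191 and 294 in Pcl2 shRNA cells, against 1435, 726 and 1709 in mismatch control cells. As with Oasl2, mismatch control replicate 2 was the lowest and replicate 3 the highest of its group. Dsp was chosen for a profile near that of Oasl2, so this likeness follows from the choice. Trim67, like Oasl2, was not above background on any Pcl2 shRNA array. None of the other members that passed the signal filter was that near, with Ifitm3 at 0.99, Bst2 at 1.00, Ifit2 at 1.24, Eif2ak2 at 1.46 and Ifitm1 at 1.63. Ifih1, Ifit1 and Ifit3 lay under the filter and were not compared.

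The wider pathway was described with 10 lists of 143 genes. Of 99 tested, 4 rose (4.04%, against 4.46% of all genes) and 10 fell (10.1%, against 8.16%), with a median of -0.02. With the replicate block 11 rose and 11 fell, against 9.97% and 13.8% of all genes. These shares lay near those of all genes. They are a description, as Cxcl10 and Tdrd7, counted among those that fell, passed the signal filter through their mismatch control signals alone.

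No ligand passed the test among 2 tested of 9 measured. Ifna1, an interferon alpha, averaged 55.8 ± 20.5 in Pcl2 shRNA cells and 35.0 ± 6.61 in mismatch control cells (0.53, adjusted p = 0.296). Its probe set is of a type likely to cross-match, so whether it reads Ifna1 alone is uncertain. Ifnb1, the interferon beta gene, averaged 34.0 ± 5.24 in Pcl2 shRNA cells and 24.3 ± 4.82 in mismatch control cells (0.39, adjusted p = 0.358). Of 14 receptor and signalling genes, Irf1, a transcription factor of the interferon response, was the one that passed. It averaged 376 ± 17.9 in Pcl2 shRNA cells and 707.8 ± 248.99 in mismatch control cells and fell by 0.85 on the log2 scale, with an SE of 0.22 (adjusted p = 0.0317), with an adjusted p of 0.0613 to 0.111 when any 1 Pcl2 shRNA array was left out.

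Of 13 sensors and adaptors of the dsRNA pathway, 1 rose and 1 fell. Trim25, a ubiquitin ligase that acts on RIG-I, averaged 1153 ± 60.9 in Pcl2 shRNA cells and 729 ± 19.0 in mismatch control cells. It rose by 0.65 (SE 0.14, adjusted p = 0.0116; 0.0531 without Pcl2 shRNA replicate 2). Tank, an adaptor of the kinase TBK1, averaged 57.6 ± 12.4 in Pcl2 shRNA cells and 117 ± 24.7 in mismatch control cells. It fell by 0.93 on the log2 scale, with an SE of 0.24 (adjusted p = 0.0276), and the adjusted p was 0.0578 to 0.0973 without Pcl2 shRNA replicate 1 or 3 or mismatch control replicate 1 or 3. The genes of RIG-I (Ddx58) and of the adaptor MAVS (Mavs) did not pass, at 0.10 (adjusted p = 0.840) and 0.20 (adjusted p = 0.579).

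Of 8 DNA-sensing genes, Rnaseh2b, a subunit of the nuclease that removes RNA from DNA, rose by 0.62 (SE 0.17, adjusted p = 0.0378). It averaged 773 ± 118 in Pcl2 shRNA cells and 499 ± 55.7 in mismatch control cells, and the call was lost with median centring (adjusted p = 0.0987) and without Pcl2 shRNA replicate 2 or 3 or mismatch control replicate 1 or 3 (0.0674 to 0.126). None of 7 oligoadenylate synthetase genes passed. Oas1a, which makes the 2-5 oligoadenylate that activates RNase L, averaged 242 ± 39.0 in Pcl2 shRNA cells and 166 ± 35.5 in mismatch control cells (0.54, adjusted p = 0.134, or 0.0212 with the replicate block). None of 5 further Ifit and Ifitm genes and none of 4 ISG15-conjugation genes passed. The brightest of the conjugation genes, Arih1, averaged 597 ± 101 in Pcl2 shRNA cells and 568 ± 39.98 in mismatch control cells (0.06, adjusted p = 0.864, and -0.036 with array weights).

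Among 7 eIF2α kinases and phosphatases, Eif2ak3 (PERK, the kinase that answers stress of the endoplasmic reticulum) averaged 206 ± 29.997 in Pcl2 shRNA cells and 321 ± 29.9 in mismatch control cells. It fell by 0.63 on the log2 scale, with an SE of 0.18 (adjusted p = 0.0422), and the call was lost whichever array was left out (adjusted p = 0.0637 to 0.141). Among 11 genes of RNA editing and processing, Stau2, a dsRNA-binding transport protein, averaged 78.3 ± 9.86 in Pcl2 shRNA cells and 134 ± 10.96 in mismatch control cells. It fell by 0.73 on the log2 scale, with an SE of 0.19 (adjusted p = 0.0321). The adjusted p was 0.0754 to 0.113 without Pcl2 shRNA replicate 1 or 2 or mismatch control replicate 1 or 3. Another Stau2 probe set fell in the fit of all probe sets (-1.09, adjusted p = 0.0177). A dim one overlapped, at 26.7 in Pcl2 shRNA cells and 29.5 in mismatch control cells (-0.10, adjusted p = 0.865).

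Of 30 other interferon-stimulated genes, 2 rose and 6 fell, 6.67% and 20%, against 4.46% and 8.16% of all genes, with a median of -0.25. Cxcl10 and Tdrd7, counted among those that fell, passed the signal filter through their mismatch control signals alone. These shares and the median are therefore only a description. Phf11d averaged 975 ± 126 in Pcl2 shRNA cells and 299 ± 48.6 in mismatch control cells and rose by 1.69 (SE 0.18, adjusted p = 0.000292). Lgals9, a galectin, averaged 253 ± 47.2 in Pcl2 shRNA cells and 90.3 ± 18.5 in mismatch control cells and rose by 1.42 (SE 0.21, adjusted p = 0.00201). Both thus moved opposite to Oasl2 and Ifitm3. Cxcl10, a chemokine that draws T cells, had signals of 15.9, 13.8 and 8.61 in Pcl2 shRNA cells, against 76.9, 41.9 and 123 in mismatch control cells. Like Oasl2, it was not above background on any Pcl2 shRNA array, and its mismatch control replicate 2 was the lowest of that group. Cxcl10 fell by 2.05 on the log2 scale, with an SE of 0.35 (adjusted p = 0.00413) and was at least 3.62-fold lower. It passed the signal filter through its mismatch control signals alone, and without the filter the adjusted p was 0.0112. The other 5 that fell, named after their values were seen, were Tdrd7 (-1.71, adjusted p = 0.0139), Parp9 (-1.37, 0.00701), Shisa5 (-0.997, 0.00522), Nmi (-0.91, 0.0325) and Ly6e (-0.79, 0.0387). Tdrd7 was not above background in Pcl2 shRNA cells and at least 2.90-fold lower. It too passed the filter through its mismatch control signals alone, and its adjusted p was 0.0306 without the filter and 0.0553 without Pcl2 shRNA replicate 2. Nmi missed the threshold when any 1 array other than mismatch control replicate 2 was left out (0.0611 to 0.110). Ly6e missed it without any 1 Pcl2 shRNA array or without mismatch control replicate 1 (0.0699 to 0.118). Its probe set free of likely cross-matches gave -0.16 (adjusted p = 0.710). That probe set was much dimmer, at 40.7 in Pcl2 shRNA cells and 46.1 in mismatch control cells. The probe set that represents the gene averaged 492 in Pcl2 shRNA cells and 883 in mismatch control cells. Which of the 2 reads Ly6e better was not tested.

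**Figure D4:**
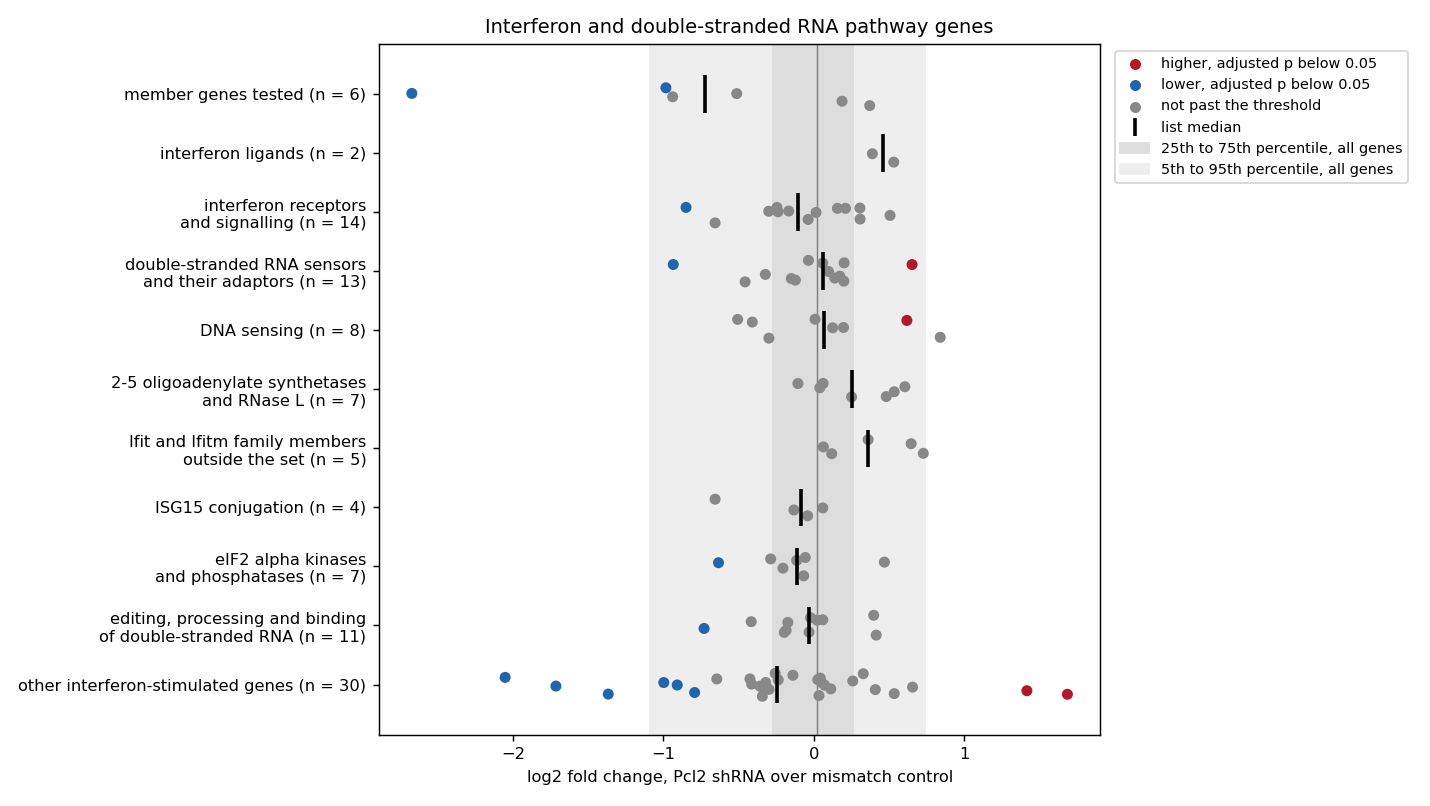
Log2 fold change, Pcl2 shRNA over mismatch control, of each tested gene in the 10 pathway lists and of the 6 tested members, 1 row per list. Red points rose and blue points fell at the adjusted p threshold, and grey points did not pass it. Most points of every pathway list lie within 1 of 0. Among the other interferon-stimulated genes, Phf11d and Lgals9 lie far right and Cxcl10, Tdrd7 and Parp9 far left.

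Promoter windows were at hand for 3 of the 4 pathway genes that rose, 7 of the 10 that fell and 74 of the 85 that did not pass. The core of the response element was found in 1 of these 3 (Lgals9), 3 of these 7 (Cxcl10, Shisa5 and Tdrd7) and 15 of these 74. Genes that rose, that fell and that did not pass all included some with it, and the members likewise (Ifitm3 fell, while Eif2ak2 and Bst2 did not pass).

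Summed markers of some cell types differed between the groups. Their counts below stand against 4.46% of all genes that rose and 8.16% that fell. The 12 embryonic stem cell markers were all above background in some array, and their summed signal was 39649 to 50937 in Pcl2 shRNA cells and 26081 to 33862 in mismatch control cells. Of these, 6 rose and none fell. Primitive endoderm markers summed to 1108 to 1249 in Pcl2 shRNA cells and 1680 to 2452 in mismatch control cells. Of 8 tested, 1 rose (Lama1) and 4 fell (Dab2, Col4a2, Lamb1 and Col4a1), and Afp was not above background on any array. Gata4 (0.003), Gata6 (0.03) and Foxa2 (-0.05) did not pass, so the sum did not stand for every marker of the list. Macrophage and leukocyte markers summed to 614 to 747 in Pcl2 shRNA cells and 456 to 545 in mismatch control cells, with Cd52 and Ptprc (CD45) not above background on any array and 1 of 6 tested higher (2 with the replicate block). Fibroblast markers summed to 344 to 660 in Pcl2 shRNA cells and 465 to 1154 in mismatch control cells, with Dcn, Fap and Lum not above background on any array and 1 of 7 tested lower. That sum was lower in Pcl2 shRNA cells in each of the 3 pairs of replicates, and with the replicate block 3 of the 7 fell. The part of these differences in the members' values was not tested.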

How the data were processed

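Total RNA was hybridised to Mouse Genome 430 2.0 arrays, and the authors deposited 1 intensity for each probe set, its MAS5 signal. The labels name GCOS 1.4 and the submitters' processing notes name MAS5. Detection calls were not used, and the genome build is not given in the sources used here. Symbols of 34741 probe sets were updated through the gene identifier. Signals became log2(signal + 7). Of probe sets naming 1 gene, 23186 reached the 40th percentile of mean log2 value (a signal of 20.2), and for each of 13095 genes the brightest by mean log2 value was kept. The groups were compared in limma 3.58.1 under R 4.3.3 (lmFit, eBayes with an intensity trend), two-sided, with Benjamini-Hochberg adjustment over all genes tested. Members under the filter were read from the same fit of 18193 genes without it. Single values had exact permutation tests over 20 relabellings. The background level is the highest signal of 27 bacterial control probe sets without a spike.

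The members and the gene lists were chosen with earlier results of these data known. Named genes are the members, Mtf2, up to 3 genes per list with the smallest p among those past the threshold (or the brightest where none passed) and the 5 genes nearest to Oasl2. Genes named outside the rule after their values were seen are Ifnb1, Ddx58, Mavs, Oasl1, Tdrd7, Parp9 and Shisa5. The same holds for Nmi, Ly6e, Rtp4, Trim34a, Tlr3, Cmpk2 and Irf2. Ifitm2 is named by the rule, but from the list of further Ifit and Ifitm genes, which was not among the lists planned. The cell type markers named singly were also picked after their values were seen. Replicates were numbered by the labels, which state no shared culture or day. Deviations of same-numbered samples from their group means correlated at 0.25, 0.39 and 0.40, and these numbers were therefore treated as pairs, a reading that rests on the values and not on the labels. The procedure was tested on simulated data.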

Additional observations from a re-analysis of the deposited data

How the results depend on the processing

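Each alternative differed in 1 choice. The scaling was quantile normalization or median centring, the pseudocount 1 or 20, and the signal filter absent or at the 60th percentile. Probe sets of a gene were averaged, or those likely to cross-match were dropped. Further alternatives were a floor at the background level, eBayes without trend, array weights, the replicate block and each array left out. Fits without the filter that also left out an array or held the block were chosen after the data were examined. Ifitm3 was called in all of them, between -1.07 and -0.91 (adjusted p up to 0.0349). Oasl2 was called wherever it was tested, between -2.99 and -1.46 (adjusted p up to 0.0201). It fell under the filter with a pseudocount of 1, with the 60th percentile filter and without any 1 mismatch control array, and members called lower were then 1, 1 and, with 1 array left out, 1 to 2. No member rose in any setting. Mtf2 lay between -0.84 and -0.53 and lost its call in 7 of 25 settings (adjusted p up to 0.0872), 5 of them without the filter and 1 array. Bst2 also passed with median centring (0.04999), the floor (0.0491) and array weights (0.0350). Ifit3 turned to 0.15 without Pcl2 shRNA replicate 3, with the filter or without it, where leaving out other arrays gave down to -0.65 (-0.59 with the filter). Over all genes, 885 rose with array weights, 1305 rose and 1808 fell with the replicate block, and with 1 array left out 261 to 577 rose and 718 to 1021 fell, the lowest counts coming without Pcl2 shRNA replicate 2. Of pathway genes, 6 fell without the filter, 7 rose with array weights, 11 rose with the replicate block, and with 1 array left out 5 to 10 fell and 2 to 4 rose. Arih1 turned to -0.036 with array weights (adjusted p = 0.910). Without the filter Irf1, Tank, Eif2ak3, Stau2, Nmi and Ly6e missed the threshold (adjusted p = 0.0509 to 0.0628), as did Irf1, Rnaseh2b, Eif2ak3 and Ly6e without trend (0.0569 to 0.0695), Eif2ak3 with quantile normalization (0.0591), and Stau2 (0.0613) and Ly6e (0.0871) with averaged probe sets. Among members the replicate block changed the call of Bst2 and of no other. The cause of these changes was not tested, apart from the filter's own construction. Signals near background limit Ifih1, Ifit1, Ifit3 and Oasl2 to bounds or weak values.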

Other observations

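Of 27 pathway genes under the signal filter, 13 were not above background on any array, and 5 lay lower in Pcl2 shRNA cells without overlap, none higher, where 11.8% of all probe sets naming 1 gene lay lower and 12.4% higher. These 5 were Rtp4, a chaperone induced by interferon, Trim34a, a tripartite-motif gene, Tlr3, the endosomal dsRNA receptor, Cmpk2, a mitochondrial nucleotide kinase, and Irf2, a relative of Irf1. None was above background on any Pcl2 shRNA array. In the fit without a filter, where 5.16% of all genes fell, Rtp4 and Trim34a did so. Rtp4 had signals of 1.55, 1.36 and 5.57 in Pcl2 shRNA cells, against 52.0, 19.2 and 215 in mismatch control cells (-2.86, SE 0.65, adjusted p = 0.0301). Its mismatch control arrays were far apart, and replicate 2 was not above background. Rtp4 was at least 2.95-fold lower, with 5.22-fold without mismatch control replicate 2 and 1.56-fold without mismatch control replicate 3. Trim34a had signals of 10.99, 9.93 and 5.97 in Pcl2 shRNA cells, against 33.7, 25.7 and 59.1 in mismatch control cells (-1.49, SE 0.31, adjusted p = 0.0219), at least 1.83-fold lower. Tlr3 averaged 8.55 ± 7.27 in Pcl2 shRNA cells and 23.2 ± 2.59 in mismatch control cells and did not pass (adjusted p = 0.126).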
